A study of Mus musculus with 38 samples.

Results

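The permeability transition pore genes described here are 8 nuclear genes for mitochondrial membrane proteins: the cyclophilin D gene Ppif, the voltage-dependent anion channel (VDAC) genes Vdac1, Vdac2 and Vdac3, the phosphate carrier gene Slc25a3, the adenine nucleotide translocator genes Slc25a4 and Slc25a5, and the translocator protein gene Tspo. They were taken from the count tables by their gene names, and all 8 were found once among 46078 gene rows. Every one of the 8 passed the filter on low counts in every comparison. The transcripts were measured by RNA sequencing of isolated intestinal epithelial cells from C57BL/6 mice, 1 library per animal, in 38 libraries. KO mice (genotype Hk2dIEC in the labels) carry a floxed Hk2 allele and Cre recombinase driven by the Villin promoter, which deletes the gene for hexokinase 2 in the intestinal epithelium, whereas WT mice are their Hk2fl/fl littermates, so both genotypes carry the floxed allele. Libraries came from untreated mice (day 0, 4 WT and 5 KO) and from mice that drank 1.5% (w/v) dextran sodium sulfate (DSS), which injures the colonic epithelium, for 3 days (7 WT and 8 KO) or 7 days (7 WT and 7 KO). DSS was given to male mice of 10 to 12 weeks, with both genotypes co-housed. Mice for basal work were 9 to 11 or 86 to 92 weeks old, and neither the age nor the sex of the day 0 mice is given in the labels. The series text speaks of colon tissue.

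The permeability transition pore is a high-conductance channel of the inner mitochondrial membrane that opens under calcium overload and oxidative stress, collapses the membrane potential and can end in cell death. Its molecular identity is debated: the ATP synthase and the adenine nucleotide translocators have been proposed as the channel, cyclophilin D in the matrix as its main sensitiser, and the VDAC channels, the phosphate carrier and the translocator protein as components or modulators, several of which turned out to be dispensable in knockout mice. Hexokinase 2 docks on the outer membrane at VDAC, where it has access to mitochondrial ATP, and its release from that site has been linked to pore opening, which is the connection between these genes and a series about Hk2 in the epithelium of the inflamed gut.

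Depth and library make-up set the limits of the comparisons. Total counts ranged from 10.5 M to 44.9 M on day 0 and from 25.2 M to 60.6 M on days 3 and 7. The members took between 0.124% and 0.368% of a library's counts. The names of the day 0 libraries carry another prefix than all others, so in comparisons with day 0 a difference between days cannot be told apart from one between library series. Ribosomal RNA of the mitochondrial genome took 6.25% to 45.6% of the counts on day 0 and 0.352% to 3.95% on days 3 and 7, without overlap. All transcripts of the mitochondrial genome together took 6.25% to 61.7% of the counts, with the highest shares in d0_KO_32 (61.7%) and d3_WT_381 (41.7%). Hk2 itself was at 247 to 440 CPM (read counts scaled to a common library size) in WT and 31.2 to 111 CPM in KO libraries on day 0, at 99.3 to 224 CPM in WT and 70.9 to 440 CPM in KO libraries on day 3, and at 231 to 598 CPM in WT and 56.6 to 261 CPM in KO libraries on day 7. The library labelled d3_KO_345 had 440 CPM, above every WT library of its day, and goes against its label, and the other 7 KO libraries of day 3 were at 70.9 to 131 CPM. With edgeR's test the log2 fold change of Hk2 in KO over WT was -2.20 on day 0 (adjusted p = 0.0331), -0.27 on day 3 (adjusted p = 0.802) and -1.25 on day 7 (adjusted p = 0.291). The unadjusted p-values of the same test were 9.3e-06, 0.433 and 0.00075 on days 0, 3 and 7. Without d3_KO_345, a setting added after the data were seen, the day 3 value was -0.74 (unadjusted p = 0.00084, adjusted p = 0.770). Epithelial markers (8 of 8 detected in every group) summed to between 8710 and 19300 CPM over all libraries, and smooth muscle markers to between 7.64 and 20.5 CPM.

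The members lie on 6 chromosomes of the mouse genome (GRCm38, coordinates as in the count tables). Ppif (ENSMUSG00000021868) occupies chr14:25694154-25700468 on the plus strand and Vdac2 (ENSMUSG00000021771) chr14:21831269-21845879 on the plus strand. Vdac1 (ENSMUSG00000020402) lies at chr11:52360860-52389397 on the plus strand, Vdac3 (ENSMUSG00000008892) at chr8:22577075-22593813 and Slc25a4 (ENSMUSG00000031633) at chr8:46206797-46211284, both on the minus strand. Slc25a3 (ENSMUSG00000061904) lies at chr10:91116574-91124059 on the minus strand, Slc25a5 (ENSMUSG00000016319) at chrX:36795651-36798807 on the plus strand and Tspo (ENSMUSG00000041736) at chr15:83563573-83574201 on the plus strand. All 8 are protein-coding, and the values are counts over all their exons. Reads were counted without regard to strand, so a read from an overlapping gene cannot be told from the member's own: Vdac2 overlaps the antisense gene Comtd1 (median 171 counts), and Slc25a3 holds the small nucleolar RNA gene Gm24119 (median 59 counts). Ppif overlaps an antisense gene, Ppifos, in the GENCODE M21 annotation. Near-identical copies were counted in rows of their own, with a median of 77.5 counts for Vdac3-ps1 and 8 counts for Slc25a5-ps, and reads that could come from either copy are uncertain.

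Upstream sequences are shown for 4 members because they cover the gene with the largest difference between days (Ppif), one that was higher on both DSS days in both genotypes (Slc25a3), and the translocator pair whose members differ most in level (Slc25a4 and Slc25a5). They are the 250 bases before the RefSeq start on GRCm38.p6, written in the direction of transcription, and capitals mark matches to 7 motifs searched on both strands. The windows are chr14:25693920-25694169 (plus strand) for Ppif, chr10:91123968-91124217 (minus strand) for Slc25a3, chr8:46211063-46211312 (minus strand) for Slc25a4 and chrX:36795347-36795596 (plus strand) for Slc25a5. The RefSeq starts differ from the gene ends in the count tables. Most of the Slc25a4 window, and part of the Slc25a3 and Ppif windows, lies inside the gene as counted. Those bases may not be promoter sequence, which also limits a missing match.
Ppif: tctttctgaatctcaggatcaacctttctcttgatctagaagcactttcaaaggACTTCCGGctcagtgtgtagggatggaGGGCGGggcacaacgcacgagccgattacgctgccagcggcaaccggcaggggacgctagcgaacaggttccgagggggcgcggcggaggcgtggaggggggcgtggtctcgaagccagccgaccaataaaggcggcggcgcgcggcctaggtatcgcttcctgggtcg
Slc25a3: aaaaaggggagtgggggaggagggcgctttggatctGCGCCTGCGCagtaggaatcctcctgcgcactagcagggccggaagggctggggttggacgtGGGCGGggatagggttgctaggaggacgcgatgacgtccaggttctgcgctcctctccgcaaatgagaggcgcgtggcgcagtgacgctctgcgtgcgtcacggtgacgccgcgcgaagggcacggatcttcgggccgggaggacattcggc
Slc25a4: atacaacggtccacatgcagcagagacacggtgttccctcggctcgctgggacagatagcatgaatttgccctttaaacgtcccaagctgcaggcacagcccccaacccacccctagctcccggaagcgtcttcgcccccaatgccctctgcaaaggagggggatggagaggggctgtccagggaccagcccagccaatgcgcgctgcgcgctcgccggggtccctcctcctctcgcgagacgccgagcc
Slc25a5: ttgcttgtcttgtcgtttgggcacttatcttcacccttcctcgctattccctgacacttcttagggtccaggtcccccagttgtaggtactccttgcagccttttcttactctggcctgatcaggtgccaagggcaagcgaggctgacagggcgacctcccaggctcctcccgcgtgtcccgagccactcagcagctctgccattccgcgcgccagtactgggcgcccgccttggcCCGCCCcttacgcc
The Ppif window holds 1 match to an ETS core (CCGGAAGT, on the minus strand, first base at -196 from the start) and 1 to an SP GC box (GGGCGG, at -169). ETS cores were found in 2.88% and GC boxes in 32.7% of 32851 promoter windows of this length. The Slc25a3 window holds 1 match to the NRF1 motif (GCGC, any 2 bases and GCGC, at -214), found in 4.98% of windows, and 1 GC box at -152. The Slc25a5 window holds 1 GC box at -14 on the minus strand, and the Slc25a4 window holds no match. The other motifs were an ERR half-site (AAGGTCA), an E-box (CACGTG), a CRE (TGACGTCA) and a TATA box (TATAAA), present in 4.08%, 6.02%, 1.55% and 12.4% of windows, with no match in these 4 windows. GC content was 61.6% to 66.4% in the 4 windows against a median of 52.4% over all windows. Promoter windows were found for 5 of the 8 members, the fifth being Vdac1 with 2 starts.

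Levels per exon length (CPM per kb of exon) ordered the members in the same broad way in all groups, with Slc25a5 at the top and Slc25a4 at the bottom. Slc25a5, the widely expressed translocator that swaps matrix ATP for cytosolic ADP, averaged 516 to 720 CPM per kb and ranked between 47 and 62 among all genes detected in each group. Slc25a4, the translocator typical of heart and skeletal muscle, averaged 4.94 to 9.37 CPM per kb, which is 0.880% to 1.502% of the summed level of the pair. The testis isoform, Slc25a31, was at or under 0.0739 CPM per kb in group means. Ppif averaged 15.5 to 38.9 CPM per kb and was the second lowest member in every group.

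The VDAC channels, through which metabolites cross the outer membrane, were closer to one another. Vdac1 averaged 95.4 to 161 CPM per kb, Vdac2 69.5 to 109 CPM per kb and Vdac3 73.2 to 102 CPM per kb. On day 0, Vdac1 made up 40.5% ± 1.01 (SD, n = 4) of the summed level of the 3 genes in WT and 39.9% ± 0.850 (SD, n = 5) in KO libraries, and on day 3 45.5% ± 2.51 (SD, n = 7) and 45.8% ± 1.43 (SD, n = 8). Slc25a3, which imports the phosphate used by the ATP synthase, averaged 95.2 to 140 CPM per kb, and Tspo, an outer membrane protein that binds cholesterol, 68.4 to 120 CPM per kb. Tspo2, a paralog of Tspo known from red blood cell precursors, had between 2 and 29 counts per library.

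**Figure D1:**
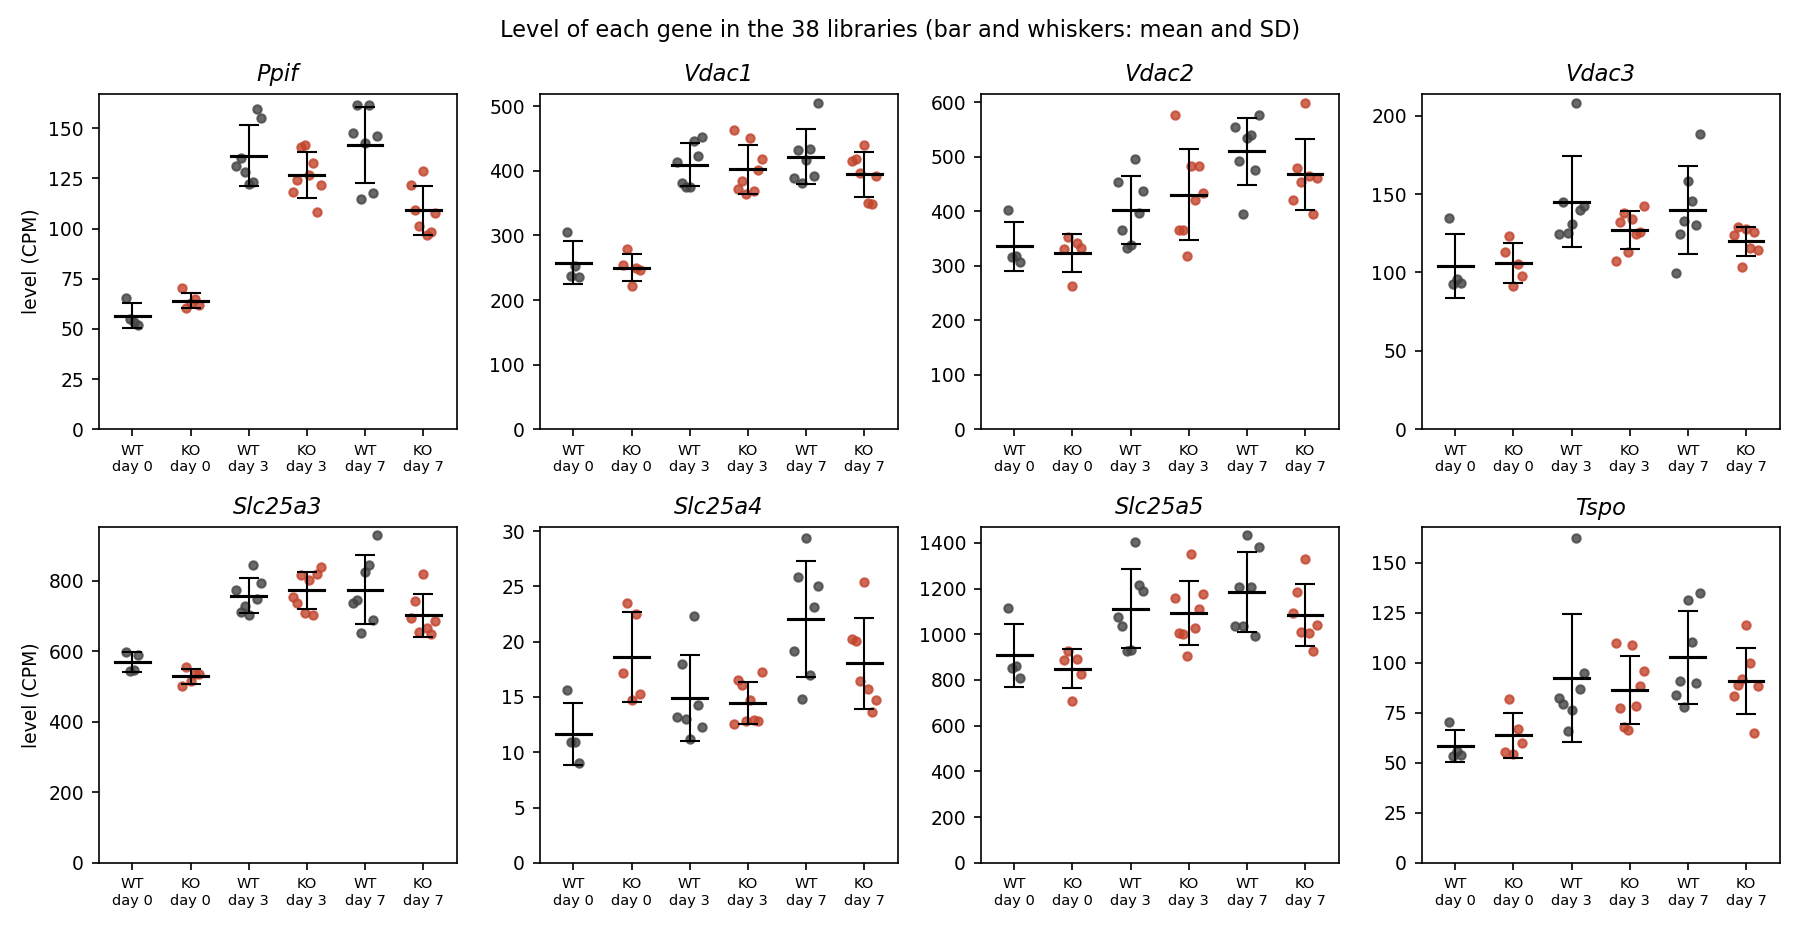
Level of the 8 genes in every library in CPM (y axis from 0, scaled per gene), with 1 point per library, WT in grey and KO in red, and bar and whiskers giving mean and SD. Ppif stands at 52.2 to 70.4 CPM in the 9 libraries of day 0 and at 96.6 to 162 CPM in the 29 libraries of days 3 and 7, whereas the groups of Slc25a4 overlap.

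The first comparison asked whether loss of Hk2 went with altered levels of these genes on a given day. With edgeR's quasi-likelihood test, 0 of the 8 members passed an adjusted p of 0.05 on day 0, where 0.0335% of 14944 genes passed, on day 3, where 0.00647% of 15461 genes passed, or on day 7, where 0.00642% of 15584 genes passed. An unadjusted p under 0.05 was reached by 2, 0 and 1 members on the 3 days, beside 10.5%, 7.88% and 12.9% of all genes. DESeq2's Wald test called 1 member on day 0 (Slc25a4, of 177 genes called) and 1 on day 7 (Ppif, of 83 genes called). In the fit over all days, 0 of the 8 passed (0.0209% of 19144 genes), with an unadjusted p under 0.05 for 2 members and 11.8% of genes. These p-values set a genotype difference against the spread between the animals sampled. WT mice were littermates of KO mice, and the genotypes were co-housed under DSS. Litters and cages are not named per library and were not part of the fits. Age and sex of the day 0 mice are not given, so they may differ between the genotypes of that day.

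Slc25a4 had the largest genotype difference on day 0. It was at 15.6, 10.9, 10.9 and 9.01 CPM in the 4 WT libraries (d0_WT_31, 41, 43 and 46) and at 17.2, 23.5, 14.7, 22.5 and 15.2 CPM in the 5 KO libraries (d0_KO_24, 32, 53, 54 and 60). The highest WT library lay above the 2 lowest KO libraries, so the groups overlap. The log2 fold change of KO over WT was 0.71 ± 0.19 (SE), with an unadjusted p of 0.0027 and an adjusted p of 0.245 in edgeR. DESeq2 gave an adjusted p of 0.0395. Without d0_KO_32 and d0_WT_31, the day 0 libraries with the highest shares of mitochondrial genome counts (61.7% and 18.8%), the log2 fold change was 0.80 with an adjusted p of 0.0274 in edgeR, and 2 members and 565 genes passed. That setting was chosen after the data were seen. It drops d0_WT_31, the WT library that made the groups overlap for Slc25a4 and Ppif, which by itself widens both differences. It also drops d0_KO_32, the highest KO library for Slc25a4. The calls of that fit are therefore no independent support, and its 565 genes stand against 5 with all day 0 libraries. The share in d0_KO_54, which was kept, was 17.5%. Small intestine markers summed to 111 to 254 CPM in WT and 142 to 426 CPM in KO libraries of day 0, and with their score as a covariate the Slc25a4 value was 0.91 (adjusted p = 0.325).

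Ppif was the other member with an unadjusted p under 0.05 on day 0. It was at 65.6, 54.9, 53.6 and 52.2 CPM in the WT libraries and at 70.4, 60.4, 63.1, 64.9 and 61.7 CPM in the KO libraries. The other WT values lay below all KO values, and d0_WT_31 lay above 4 of the 5. The log2 fold change was 0.21 ± 0.09 (SE, unadjusted p = 0.0341, adjusted p = 0.445, edgeR), and 0.32 with an adjusted p of 0.0434 without the same 2 libraries. For Ppif these are the highest WT and the lowest KO library, so leaving them out widens the difference by construction. The remaining 6 members had log2 fold changes between -0.07 (Slc25a3) and 0.16 (Tspo) on day 0.

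On day 3 the members' log2 fold changes ran from -0.20 (Vdac3, unadjusted p = 0.0833) to 0.09 (Vdac2), with a median of -0.04 beside -0.005 over all genes. Vdac3 was at 124, 140 and 208 CPM (lowest, median and highest) in WT and at 108, 129 and 142 CPM in KO libraries, so all KO values lay within or below the WT range. The highest WT value belongs to d3_WT_381. Without the library labelled d3_KO_345, 0 of the 8 passed as well.

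On day 7 all 8 members had a log2 fold change below 0, where 49.1% of all genes were above 0. Most members vary together over the same libraries, so the 8 signs are not independent. Every gene of the ATP synthase list described below was below 0 on that day as well. The members' median was -0.16 beside -0.005 over all genes tested. Ppif was at 115, 146 and 162 CPM (lowest, median and highest) in 7 WT libraries and at 96.6, 108 and 129 CPM in 7 KO libraries. The ranges overlap between 115 and 129 CPM, where 2 libraries of each genotype lie. The log2 fold change was -0.38 ± 0.10 (SE), with an unadjusted p of 0.0014 and an adjusted p of 0.291 in edgeR. The adjusted p was 0.0497 in DESeq2 and 0.04999 in an edgeR fit of all 38 libraries. Slc25a4 (-0.29) and Vdac3 (-0.22) followed, with unadjusted p-values of 0.113 and 0.0709, and the other 5 lay between -0.18 (Tspo) and -0.10 (Vdac1). Macrophage and monocyte markers summed to 95.3 to 396 CPM in WT and 101 to 455 CPM in KO libraries of day 7, and 11 of 12 were above 0 in the log2 fold change, none of them called. Whether fewer cells of a type or less RNA per cell lies behind a bulk level cannot be told apart here.

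**Figure D2:**
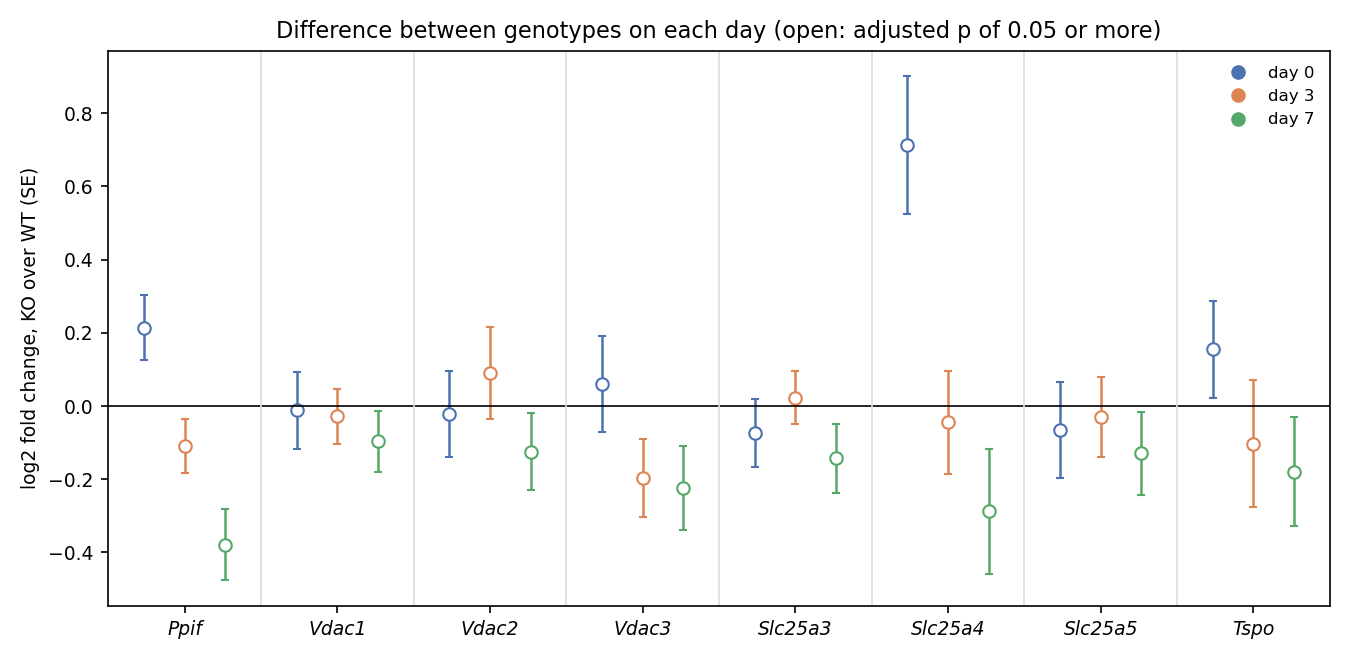
Log2 fold change of KO over WT (y axis) for the 8 genes on days 0, 3 and 7, with whiskers of 1 SE, and open points where the adjusted p of edgeR's test was 0.05 or more. All points are open, with Slc25a4 on day 0 highest at 0.71 and Ppif on day 7 lowest at -0.38.

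The course of DSS was compared within each genotype between days 3 and 7, which share a library series. In WT mice Vdac2 and Slc25a4 rose, 2 of the 8 members, beside 19.3% of 15541 genes called in either direction and 10.6% called higher. In KO mice 0 of the 8 passed in edgeR, again beside 19.3% (of 15568 genes), with an unadjusted p under 0.05 for 2 members (30.6% of genes) and 1 member called by DESeq2 (Ppif). Vdac2, which besides carrying metabolites restrains the cell death effector BAK, was at 332, 397 and 496 CPM (lowest, median and highest) in WT libraries of day 3 and at 396, 535 and 576 CPM on day 7. On day 7, 4 of the 7 values lay above the highest day 3 value, and d7_WT_370, at 396 CPM, lay within the day 3 range. The log2 fold change was 0.36 ± 0.11 (SE, adjusted p = 0.0387, edgeR). Slc25a4 was at 11.2, 13.2 and 22.3 CPM on day 3 and at 14.8, 23.1 and 29.4 CPM on day 7 in WT mice, a log2 fold change of 0.58 ± 0.18 (SE, adjusted p = 0.0324, edgeR). The day 3 maximum belongs to d3_WT_381.

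Both calls were close to the threshold. Leaving out 1 library at a time kept the Vdac2 call only without d3_WT_346, d3_WT_381, d7_WT_370 or d7_WT_419, with adjusted p-values from 0.0108 to 0.0818 over the 14 fits and log2 fold changes from 0.32 to 0.41. The Slc25a4 call held only without d3_WT_348, d3_WT_381, d7_WT_356, d7_WT_370 or d7_WT_393, with adjusted p-values from 0.0053 to 0.0701 and log2 fold changes from 0.49 to 0.70. In KO mice the log2 fold change was 0.12 for Vdac2 (adjusted p = 0.536) and 0.32 for Slc25a4 (adjusted p = 0.0957). Ppif was at 108, 125 and 142 CPM on day 3 and at 96.6, 108 and 129 CPM on day 7 in KO mice, a log2 fold change of -0.21 ± 0.08 (SE, adjusted p = 0.0596, edgeR). Its adjusted p was 0.0488 without the library labelled d3_KO_345, 0.0458 without d7_KO_366, 0.0296 without d3_KO_388 and 0.0125 without d7_KO_420. With all libraries it did not pass, so these selected fits are no independent support.

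Whether the day 7 to day 3 difference itself differed between genotypes was tested with an interaction term. It was below 0 for all 8 members (less of a rise, or more of a fall, in KO mice), where 47.5% of genes were above 0, and it passed for 0 of the 8 and 0.00% of 16371 genes. These signs are not independent of one another, and they reuse the day 7 libraries of the genotype comparison. An unadjusted p under 0.05 was reached by 1 member and 2.69% of genes. That member was Ppif, at -0.27 ± 0.12 (SE, unadjusted p = 0.0321, adjusted p above 0.99). DESeq2 called 0 members and 0 genes.

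Differences from day 0 were larger, and in each of them the day and the library series change together. In WT mice 4 of the 8 members rose on day 3 (20.4% of all genes did) and 6 on day 7 (27.8% of all genes). In KO mice 3 members rose on day 3 (22.6% of all genes) while 1 member fell (23.7%), and 5 members rose on day 7 (27.3%). Leaving out d0_KO_32 raised the KO day 3 count of called members from 4 to 8, and leaving out d0_WT_43 or d0_WT_46 lowered that of WT mice on day 3 from 4 to 2. With the immune marker score as a covariate, 1 member (Ppif) passed on day 7 in WT and 0 in KO mice. The share of all genes called in these fits is not given beside these counts, so they cannot be read as particular to the members. Gene counts with the immune score are given in the last section. All libraries of the DSS day lay above all of day 0 for 3 and 4 members in WT mice on days 3 and 7 (16.7% and 20.6% of all genes) and for 3 and 5 members in KO mice (17.6% and 21.7%). The share of mitochondrial ribosomal RNA given above separates day 0 from the DSS days without overlap, and its part in these differences was not tested. Markers of other cells moved as well. Those of T and NK cells were called higher on day 3 for 4 of 9 tested in WT and 6 of 8 in KO mice. On day 7 they were called higher for 9 of 9 in both genotypes. Small intestine markers were called lower on day 3 for 2 of 8 in WT and 5 of 8 in KO mice. Of all genes, 25.6% and 23.7% were called lower there. In WT mice Lyz1 of that list was called higher on day 3 (2.05). On day 7 Alpi (1.03), Lyz1 (2.17) and Fabp6 (1.69) were called higher in WT mice, and Lct (-3.08) and Apob (-0.85) lower. Summed T and NK cell markers were at 5.46 to 22.1 CPM on day 0, 5.13 to 62.4 CPM on day 3 and 23.7 to 139 CPM on day 7. Small intestine markers summed to 61.5 to 181 CPM on day 3, against 111 to 426 CPM on day 0.

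Ppif had the largest member difference in all 4 comparisons with day 0. It rose from 52.2 to 65.6 CPM on day 0 to 122 to 159 CPM on day 3 and 115 to 162 CPM on day 7 in WT mice, and no library of either DSS day overlapped with day 0. The log2 fold changes were 1.17 ± 0.11 (SE, adjusted p = 9.4e-07) and 1.25 ± 0.12 (SE, adjusted p = 2.2e-06) in edgeR. In KO mice it rose from 60.4 to 70.4 CPM to 108 to 142 CPM and then 96.6 to 129 CPM, with log2 fold changes of 0.86 ± 0.07 (SE, adjusted p = 1.8e-07) and 0.65 ± 0.09 (SE, adjusted p = 2.7e-05). The ranges again did not overlap.

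Vdac1 and Slc25a3 were called in all 4 comparisons with day 0. Vdac1 was at 306, 237, 253 and 235 CPM in the WT and at 254, 279, 222, 248.9 and 246 CPM in the KO libraries of day 0. On days 3 and 7 it had medians of 414 and 417 CPM in WT and 392.6 and 396.5 CPM in KO libraries, with a highest value of 505 CPM. No DSS library fell to the day 0 range. Its log2 fold changes were 0.57 and 0.63 in WT and 0.57 and 0.54 in KO mice on days 3 and 7. Slc25a3 was at 598, 543, 546 and 589 CPM in WT and at 501, 555, 516, 535 and 536 CPM in KO libraries of day 0, and at 648 to 931 CPM on the DSS days, without overlap. Its log2 fold changes were 0.32 and 0.37 in WT and 0.42 and 0.30 in KO mice. In WT mice the day 3 call of Slc25a3 was lost without d0_WT_43 (adjusted p = 0.0657) or d0_WT_46 (0.0522), and the day 7 call without d0_WT_41 (0.0528).

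Tspo rose by 0.57 and 0.74 on the log2 scale in WT mice on days 3 and 7 (adjusted p = 0.0424 and 0.0018, edgeR) and by 0.40 in KO mice on day 7 (adjusted p = 0.0262). It was at 70.5, 53.2, 56.0 and 54.01 CPM in the WT libraries of day 0, at 65.8, 82.1 and 162 CPM (lowest, median and highest) on day 3 and at 77.7, 91.1 and 135 CPM on day 7. The WT day 3 call was lost without d0_WT_41 (adjusted p = 0.091), d0_WT_43 (0.0959) or d0_WT_46 (0.117), and the KO day 7 call without d0_KO_53 (0.0712) or d0_KO_60 (0.0565). Vdac2 was called higher than on day 0 on day 7 in both genotypes, by 0.53 in WT and 0.42 in KO mice. Vdac3 (0.06 to 0.39) and Slc25a5 (0.20 to 0.31) passed in none of the 4, and Vdac3 passed in WT mice on both days without d0_WT_31 (0.56 and 0.52, adjusted p = 0.0101 and 0.0164), the library with the highest Vdac3 level of its group.

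Slc25a4 was the member whose difference from day 0 had opposite signs in the genotypes. In WT mice it was 0.27 on day 3 (adjusted p = 0.302) and 0.85 ± 0.20 (SE, adjusted p = 0.0030) on day 7, whereas in KO mice it fell by 0.48 ± 0.13 (SE, adjusted p = 0.0062, edgeR) on day 3 and was at -0.15 (adjusted p = 0.476) on day 7. The KO levels were 12.6, 13.8 and 17.2 CPM (lowest, median and highest) on day 3 and 13.7, 16.5 and 25.4 CPM on day 7, set against the 14.7 to 23.5 CPM of day 0. The KO day 3 call held in each of the 6 leave-one-out fits run, with log2 fold changes from -0.55 to -0.34, and was lost with the immune marker score as a covariate (-0.38, adjusted p = 0.0983). Interaction terms with day 0, added after the data were seen, gave Slc25a4 -0.77 ± 0.24 (SE, unadjusted p = 0.0036, adjusted p = 0.213) for day 3 and -0.97 ± 0.27 (SE, unadjusted p = 0.0017, adjusted p = 0.181) for day 7. For Ppif they were -0.34 ± 0.12 (SE, adjusted p = 0.240) and -0.56 ± 0.14 (SE, unadjusted p = 0.0006, adjusted p = 0.167). With edgeR 0 members passed in either, beside 0.00% of 18458 and 0.00531% of 18830 genes, with an unadjusted p under 0.05 for 2 members each time (13.5% of genes both times). DESeq2 called 0 members for day 3 and 2 for day 7, Ppif (adjusted p = 0.0241) and Slc25a4 (adjusted p = 0.0466). For Slc25a4, the interaction terms, the KO fall on day 3 and the day 0 genotype difference all reuse the KO libraries of day 0. So does its day 0 ratio to Slc25a5 given below, and these results are not independent of one another.

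**Figure D3:**
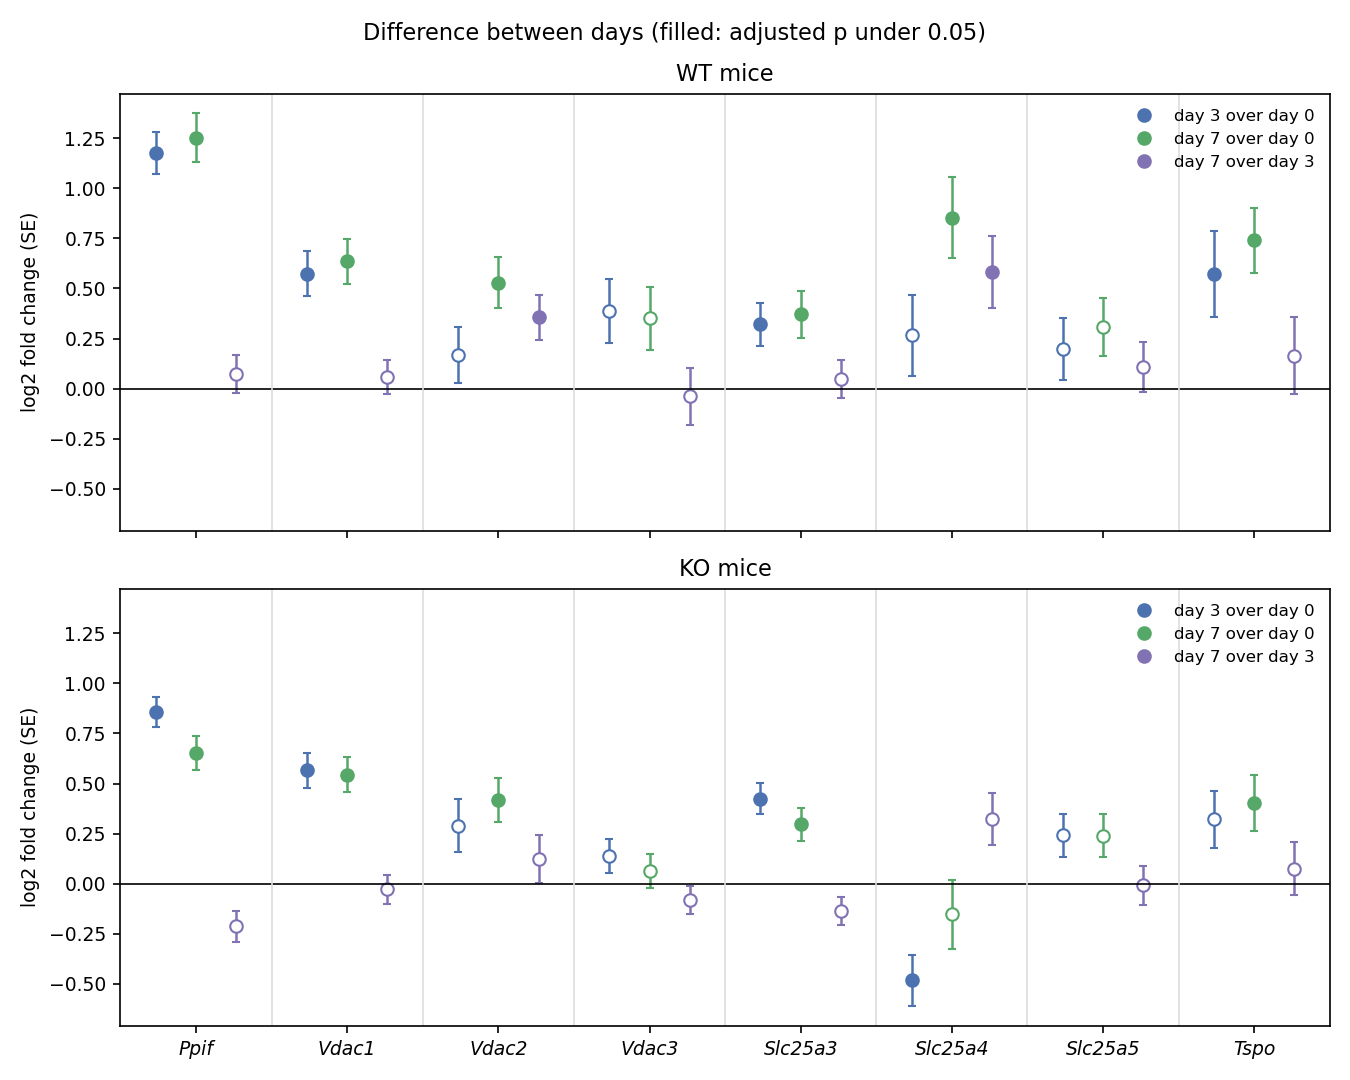
Log2 fold change between days (y axis, whiskers of 1 SE) for the 8 genes in WT (top) and KO mice (bottom), with filled points where the adjusted p of edgeR's test was under 0.05. Ppif is highest in each comparison with day 0 (0.65 to 1.25), and Slc25a4 lies at 0.27 and 0.85 over day 0 in WT but at -0.48 and -0.15 in KO mice.

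The members were ordered by group as follows. For Ppif the order from lowest to highest mean was WT day 0 (56.5 CPM), KO day 0 (64.1 CPM), KO day 7 (109 CPM), KO day 3 (127 CPM), WT day 3 (136 CPM) and WT day 7 (142 CPM), and the last 3 differed by less than their SD. For Vdac1 and Slc25a5 both day 0 groups came first, and the 4 DSS groups followed at 394 to 421.4 CPM and at 1084 to 1185 CPM, each within 1 SD of its neighbour. For Slc25a4 the order was WT day 0 (11.6 CPM), KO day 3 (14.5 CPM), WT day 3 (14.9 CPM), KO day 7 (18.04 CPM), KO day 0 (18.6 CPM) and WT day 7 (22.04 CPM), and neighbours above the first pair differed by less than the larger SD.

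Ratios of related genes within a library do not depend on scaling between libraries, and 5 ratios of counts per kb were tested in 5 comparisons each. None of the 25 exact two-sided permutation tests passed after Benjamini-Hochberg adjustment, and the smallest adjusted p was 0.0567. The log2 ratio of Slc25a4 to Slc25a5 was -6.67, -6.80, -6.81 and -7.00 in the WT and -6.21, -5.82, -6.11, -5.83 and -6.28 in the KO libraries of day 0. These groups do not overlap, and the difference of 0.77 ± 0.12 (SE) had an exact permutation p of 0.0079, the smallest that 4 against 5 libraries allow (adjusted p = 0.0567). For the ratio of Ppif to Slc25a5 the day 0 groups did not overlap either, at -5.23 to -5.10 in WT and -5.08 to -4.64 in KO libraries (difference 0.28 ± 0.08 (SE), exact permutation p = 0.0159, adjusted p = 0.0567). On day 7 that ratio was at -4.47 to -3.96 in WT and -4.58 to -4.31 in KO libraries, a difference of -0.25 ± 0.08 (SE, exact permutation p = 0.0128, adjusted p = 0.0567), and the groups overlap. On day 3 the mean Slc25a4 to Slc25a5 ratios were -6.76 in WT and -6.76 in KO libraries (difference 0.0039, exact permutation p = 0.976), and on day 7 -6.29 and -6.45 (exact permutation p = 0.215). Between days 3 and 7 the same ratio differed by 0.47 in WT and by 0.31 in KO mice, without passing the adjusted threshold (exact permutation p = 0.0099 and 0.0154, adjusted p = 0.0567 for both).

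Among the VDAC genes, the log2 ratio of Vdac1 to Vdac2 in WT mice was 0.86 ± 0.13 (SD, n = 7) on day 3 and 0.56 ± 0.15 (SD, n = 7) on day 7. The difference of -0.30 had an exact permutation p of 0.0029 (adjusted p = 0.0567), and without d7_WT_370 it was -0.34 with an adjusted p of 0.0437. The ratio of Vdac3 to Vdac2 moved from 0.23 ± 0.21 (SD, n = 7) to -0.17 ± 0.30 (SD, n = 7) over the same days (exact permutation p = 0.0111, adjusted p = 0.0567), and without d3_WT_346 the difference was -0.47 with an adjusted p of 0.0364. Both of these fits lie at the wide end of the leave-one-out ranges given in the last section. Each leaves out a library that had narrowed the difference, so their passing is no independent support. In KO mice the corresponding differences were -0.16 and -0.21 (exact permutation p = 0.0772 and 0.167).

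**Figure D4:**
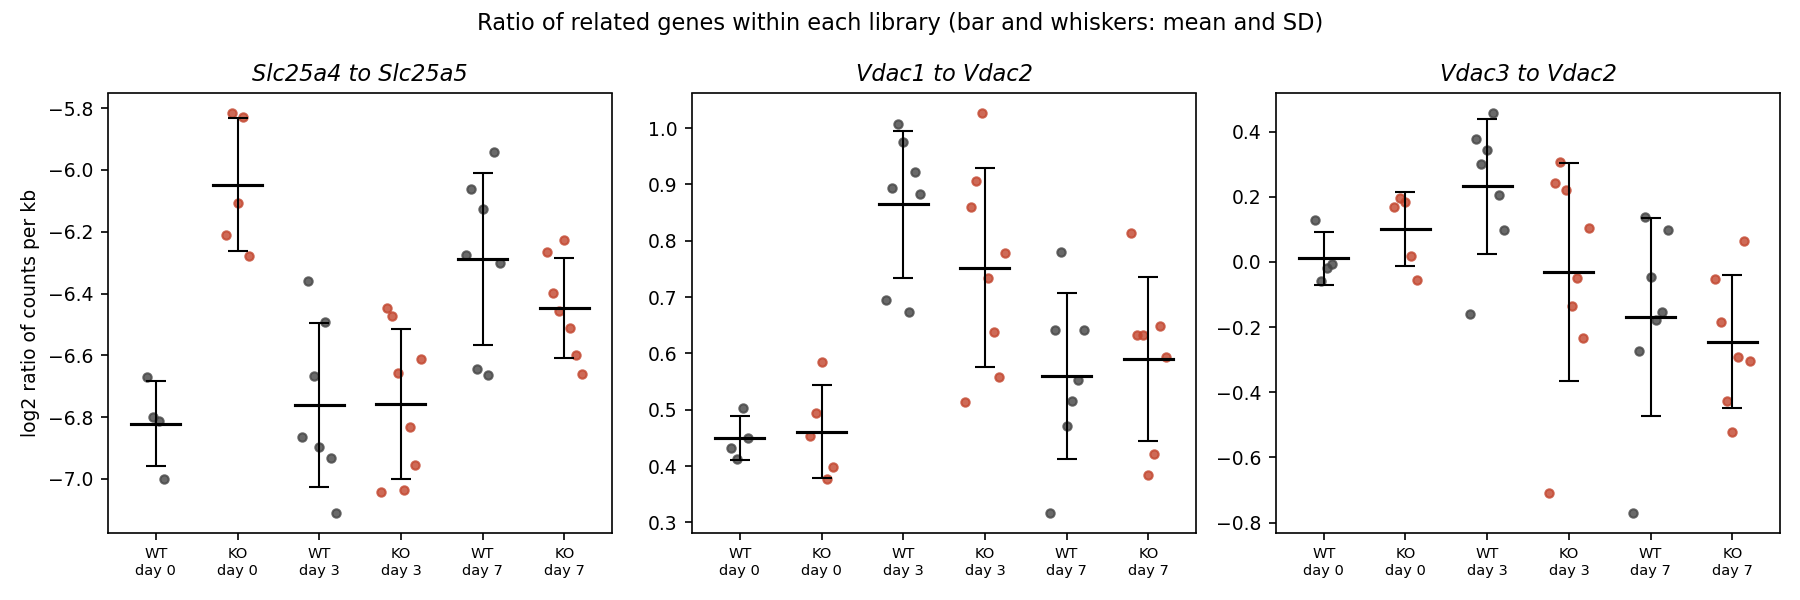
Log2 ratio of counts per kb (y axis) of Slc25a4 to Slc25a5, Vdac1 to Vdac2 and Vdac3 to Vdac2 in each library by group, with bar and whiskers giving mean and SD. The Slc25a4 to Slc25a5 ratio lies between -7.00 and -6.67 in WT and between -6.28 and -5.82 in KO libraries on day 0, and the genotypes overlap on days 3 and 7.

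Genes around the pore were read from fixed lists. Between genotypes, 0.0335%, 0.00647% and 0.00642% of all genes were called on days 0, 3 and 7, so 0 called in a list is near that share. Of 18 genes of the ATP synthase list (subunits and the inhibitor gene Atpif1), 0 were called between genotypes on any day. Beside 19.3% of all genes, 0 of them were called between days 3 and 7 in either genotype. Their log2 fold changes of KO over WT were above 0 for 18 of 18 on day 0 (median 0.13), below 0 for 17 of 18 on day 3 (median -0.17) and below 0 for 18 of 18 on day 7 (median -0.26). These genes share libraries and were measured beside an all-gene median within 0.005 of 0. The mitochondrial content markers, 16 genes such as Cs and Tfam, had medians of 0.03, 0.04 and -0.03 on the same 3 days, with 0 called. Between genotypes 0 genes of the calcium uniporter, pore regulator, outer membrane import, cyclophilin, carrier and TSPO partner lists were called on any day.

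Between days 3 and 7 the mitochondrial calcium genes changed in both directions. The calls of this list and of those that follow stand beside 19.3% of all genes called in each genotype. In WT mice, Mcu, the channel subunit of the calcium uniporter, rose by 0.28, its inhibitory paralog Mcub (Ccdc109b in the tables) by 0.77, and Micu2, a gatekeeper of the uniporter, by 0.36. Micu3 fell by 0.62 and Slc8b1, the sodium-calcium exchanger that lets calcium out of the matrix, fell by 0.76. In KO mice 2 of 10 rose, Ccdc109b by 0.68 and Micu2 by 0.28, and 2 fell, Micu3 by 0.82 and Slc8b1 by 1.02. Among 13 reported pore regulators, Bak1, an outer membrane effector of apoptosis, rose by 0.50 in both genotypes, and Ckmt1, the mitochondrial creatine kinase, fell by 0.71 in WT and 0.93 in KO mice. Bcl2l1, which restrains Bax and Bak1, rose by 0.35 in WT mice (0.33 in KO mice, not called).

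The remaining lists were read in the same way. Samm50 of the outer membrane sorting machinery rose by 0.28 in WT mice (0.15 in KO mice, not called). In KO mice Tomm22 rose by 0.17 and Mtx3 fell by 0.45, and their WT values were 0.24 and -0.25, not called. Of 16 other cyclophilin genes, Ppil6 alone was called and fell by 1.35 in WT and 0.94 in KO mice. Among 40 carrier genes tested, 2 rose and 6 fell in WT mice, a share near that of all genes. Slc25a29 (-0.97), Slc25a23 (-0.93), Slc25a27 (-0.91) and Slc25a36 (-0.74) were lowest and Slc25a22 (0.35) and Slc25a24 (0.34) higher. In KO mice 2 rose and 3 fell, among them Slc25a20 (0.51), Slc25a13 (0.19), Slc25a36 (-0.80), Slc25a12 (-0.52) and Slc25a40 (-0.26). Apart from Slc25a36, called in both genotypes, the carriers named had the same sign in the other genotype without a call. Slc25a22 was at 0.37 in KO mice, and Slc25a20 and Slc25a13 were at 0.56 and 0.20 in WT mice. Of the 7 TSPO partner genes tested, 0 were called in WT mice and 3 in KO mice. In KO mice Dbi, which encodes a TSPO ligand, rose by 0.31, Bzrap1 (Tspoap1) by 1.53 and the steroid enzyme gene Hsd3b3 by 0.42. In WT mice Dbi was at 0.37, Bzrap1 at 0.51 and Hsd3b3 at 0.23, not called. Idh3a fell by 0.27 in KO mice, the 1 called gene of the 16 content markers. Hk3, a hexokinase of leukocytes, rose by 4.87 in WT and 3.74 in KO mice, and Hkdc1 by 0.59 in WT mice (0.69 in KO mice, not called). The Hk3 values start near the floor, so their size is uncertain. Median Hk3 levels were 0.107 CPM in WT and 0.136 CPM in KO libraries on day 3, and 1.02 and 4.13 CPM on day 7. Hk2 rose by 0.92 in WT mice (adjusted p = 0.0077, edgeR) and was at -0.08 in KO mice (adjusted p = 0.923), or 0.40 without d3_KO_345 (adjusted p = 0.333). The interaction term of Hk2 did not pass, at -0.98 with d3_KO_345 and -0.51 without it.

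Immune markers moved with these days. Neutrophil markers summed to 8.20 to 45.8 CPM in WT libraries of day 3 and to 155 to 1143 CPM on day 7, and to 13.9 to 169 CPM and 135 to 1844 CPM in KO libraries, with 9 of 9 called higher in both genotypes. Macrophage and monocyte markers were called higher for 12 of 12 in WT and 10 of 12 in KO mice. Within the 4 groups of the DSS days, the log2 CPM of each member was set against the mean log2 CPM of both marker lists, 32 relations in all, and none passed after adjustment. The nearest was Vdac2 in KO libraries of day 3, with Pearson's r of 0.83 over 8 libraries (exact permutation p = 0.0038, adjusted p = 0.121, adjusted p for Spearman's rho 0.246), which was 0.64 without d3_KO_345 and d3_KO_351. With the marker score as a covariate, 0 members and 0 genes were called between days 3 and 7 in WT mice, and the Vdac2 and Slc25a4 values were 0.60 and 1.04 (adjusted p = 0.351 and 0.295). The score and the day run nearly together there, so their parts cannot be told apart.

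Across the 29 libraries of days 3 and 7, the members varied together to different degrees. As a description over points that share group, scaling and depth differences, Pearson's r of log2 CPM was 0.88 between Slc25a5 and Tspo, 0.84 between Vdac1 and Slc25a5, and 0.07 between Ppif and Vdac2. The genes with patterns most like each member, among 9391 genes with a mean log2 CPM of at least 3, were Ppp2cb (0.87), Mcoln2 (0.83) and Fech (0.83) for Ppif, and Acot9 (0.96), Anxa1 (0.96) and Serpinb1a (0.95) for Vdac2. For Vdac1 they were Rhoa (0.84), Derl1 (0.83) and Sars (0.82), and for Vdac3 Plgrkt (0.93), Acadm (0.90) and Tstd1 (0.89). For Slc25a3 they were Prkag1 (0.84), Ccdc32 (0.83) and Ndufa6 (0.81), and for Slc25a4 Rab17 (0.83), Ociad2 (0.83) and Guca2b (0.83). Slc25a5 was followed by Calm2 (0.91), Stx8 (0.91) and Lamtor1 (0.90), and Tspo by Ssu72 (0.93), Smdt1 (0.92) and Calm2 (0.92).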

How the data were processed

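Polyadenylated RNA was sequenced from 38 libraries of isolated mouse intestinal epithelial cells (stranded kit, pairs of 50 bases, an average of 23 M reads, per the labels). Deposited are 76 tables of raw read counts, 2 lanes per library. Per the file headers, the authors made them with featureCounts 1.6.2 on paired-end alignments without regard to strand. Per the submitters' processing notes, reads were trimmed with Trim Galore, aligned with STAR to GRCm38 and counted with featureCounts 1.5.2, so the 2 sources name different versions. The release of the annotation is not given in the sources used here.

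Lanes were summed per library (log counts of the lanes correlated at 0.989 or more), and groups came from the genotype and day in the labels. Each comparison was fitted on all genes of the groups compared with edgeR 4.0.16 in R 4.3.3 (TMM scaling, filterByExpr, quasi-likelihood test, Benjamini-Hochberg adjustment over all genes tested, called at an adjusted p under 0.05). A standard error is the log2 fold change divided by the root of its F statistic. CPM values use TMM scaling over all 38 libraries, so a ratio of group means can differ slightly from a fitted fold change. Log2 CPM for correlations uses a prior count of 2. Ratios and relations used exact permutation tests (scipy 1.17.1). Alternatives were DESeq2 1.42.0 (scaling, Wald test), 2 other filters on low counts, removal of mitochondrial genome and immunoglobulin genes, an immune score covariate, a fit of all libraries and leaving out libraries in turn. The fits were tested on simulated data.

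The members and lists were chosen with earlier results of these data known. The rule named all members, Hk2, other hexokinases, every called gene of a list (at most 4 per direction, with a mean log2 CPM of at least 2), and the 3 genes most correlated with each member. Interactions with day 0, a small intestine score covariate and the fit without the 2 day 0 libraries highest in mitochondrial genome counts were added after the data were seen. Library sizes were recomputed after filtering, a setting fixed after first results were seen. Where 3 counts were a library's floor, that floor was 0.0495 to 0.286 CPM. One result of the calcium list is not reported here.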

Additional observations from a re-analysis of the deposited data

Results flagged for a closer look

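A gap test for a single high or low library (the gap to the nearest library over the group's range, set against Dixon's critical value at 95%) was applied to the members and ratios in 78 group values and picked 11. Chance picks about 1 in 20 of independent values. Here members vary together, ratios reuse their values, and most picks belong to d0_WT_31 and d3_WT_381. The number picked can therefore not be held against that rate. In the day 0 WT group, d0_WT_31 was highest for 4 members: Vdac2 (402.7 CPM, next 318), Vdac3 (134.6 CPM, next 95.9), Slc25a5 (1113 CPM, next 859) and Tspo (70.49 CPM, next 56.0). Its share of mitochondrial genome counts was 18.8%, the highest of the WT libraries of that day. In the day 3 WT group, d3_WT_381 was highest for Vdac3 (207.9 CPM, next 145) and Tspo (162.2 CPM, next 94.7), lowest for the log2 ratio of Ppif to Slc25a5 (-4.66, next -4.18) and highest for that of Tspo to Vdac1 (0.1597, next -0.64). That library had 41.7% mitochondrial genome counts. The part of that share in these values was not tested. The other 3 were Vdac1 in d7_WT_431 (505.4 CPM, next 434), Vdac2 in d0_KO_53 (262.5 CPM, the lowest, next 329.9) and Vdac2 in d7_KO_420 (599.1 CPM, next 479).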

How the results depend on the processing

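No paired analysis was possible because the animal numbers in the labels are not shared between groups. Between genotypes, DESeq2's Wald test called 177, 2 and 83 genes on days 0, 3 and 7 and 19 over all days, with 1, 0, 1 and 0 members; without a filter 52 and 2 genes passed on days 0 and 7, with a minimum mean CPM of 1 the counts were 0 on days 3 and 7 and 1 over all days, and the fit of all 38 libraries called 38 genes and 1 member on day 7. With the small intestine score 0 genes passed on day 0, and without the 2 day 0 libraries highest in mitochondrial genome counts 565 genes and 2 members did. The last 2 settings turned the signs of Vdac1 (0.034 and 0.045) and Vdac2 (0.012 and 0.052), and the last that of Slc25a5 (0.022), none of them called. On day 3 the immune score turned Vdac2 to -0.051 and Slc25a4 to 0.042.

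For day 7 against day 3, the immune score left 0 members and 0 genes in WT and 1 gene in KO mice, and turned Vdac3 in WT (0.58) and Vdac2 (-0.49), Vdac3 (0.042) and Tspo (-0.45) in KO mice. Without a filter 1 member passed in WT mice, DESeq2 called 1 in KO mice, and the fit of all libraries turned Vdac1 (0.013) and Slc25a5 (0.032) in KO mice. Against day 0, the immune score left 1 member and 1002 genes on day 7 in WT and 0 members and 192 genes in KO mice, with Slc25a5 at -0.19; 2 members passed on day 3 in WT mice with a minimum mean CPM of 1, and 7 in KO mice without a filter. For the interactions with day 0, DESeq2 called 94 genes (day 3) and 174 genes with 2 members (day 7), the fit of all libraries 2 and 4 genes, the immune score 2 genes and the small intestine score 0 genes on day 7. The day 3 Vdac1 term turned to 0.0097 with DESeq2's size factors, 0.0099 with its Wald test, 0.0201 without a filter and 0.017 without mitochondrial and immunoglobulin genes; the immune score gave Vdac2 -0.041 and Slc25a5 -0.0032, and the small intestine score gave Slc25a3 0.015 on day 7. Medians gave the day 3 genotype difference of Tspo to Vdac1 as 0.078, and z-scores gave relations of -0.056 (Ppif, WT day 3) and -0.019 (Vdac3, KO day 7).

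Leaving out 1 library at a time (97 fits), genes called between genotypes ran from 0 to 37 on day 0, 0 to 1 on day 3 and 1 to 2 on day 7, and members called from 0 to 2 for day 7 against 3 in both genotypes, 2 to 5 for WT and 4 to 8 for KO mice on day 3 against day 0. Ranges that crossed 0 between genotypes were, on day 0, Vdac1 (-0.055 to 0.081), Vdac2 (-0.065 to 0.079) and Slc25a5 (-0.12 to 0.049); on day 3, Slc25a3 (-0.0049 to 0.0497), Slc25a4 (-0.10 to 0.076), Slc25a5 (-0.085 to 0.034) and Tspo (-0.17 to 0.0900); and over all days, Vdac2 (-0.044 to 0.0073) and Slc25a4 (-0.018 to 0.042). For day 7 against 3 they were Vdac3 in WT (-0.12 to 0.062) and Vdac1 (-0.0599 to 0.0032), Slc25a5 (-0.068 to 0.044) and Tspo (-0.0061 to 0.14) in KO mice. Ratio differences ranged, between genotypes, from -0.054 to 0.071 (Slc25a4 to Slc25a5, day 3), -0.0897 to 0.086 (Tspo to Vdac1, day 3), -0.019 to 0.033 (Vdac1 to Vdac2, day 0) and -0.0102 to 0.067 (Vdac1 to Vdac2, day 7), and, for WT day 7 against 3, from -0.12 to 0.0038 (Ppif to Slc25a5), 0.073 to 0.26 (Tspo to Vdac1), -0.34 to -0.26 (Vdac1 to Vdac2) and -0.47 to -0.30 (Vdac3 to Vdac2). In each comparison DESeq2's factors moved the median of all genes by under 0.1.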
